A study of Mus musculus with 3 samples.

Results

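The BCL2 family genes described here are 10 genes whose products decide between survival and death of a cell, measured by RNA sequencing in B cells sorted from mouse spleen. They were taken from the deposited gene table by gene name, and all 10 of the 10 names were found among its 27088 genes. Of these, Bcl2, Bcl2l1, Mcl1, Bcl2a1b and Bcl2a1d encode anti-apoptotic proteins, Bax and Bak1 encode the effectors, and Bcl2l11, Pmaip1 and Bbc3 encode BH3-only proteins. The B cells came from female BALB/c mice of the PBS group and of the SJMHE1 group, SJMHE1 being a small peptide from the parasitic worm Schistosoma japonicum. Both groups were aged 6 weeks at the start, and 13 weeks is the age the sample labels give. Allergic rhinitis was induced in both with OVA, at 10 μg with 2 mg aluminum hydroxide into the peritoneum on days 0, 7 and 14 and at 100 μg into the nose daily from day 21 to day 27 and again from day 29 until day 35. The PBS group also had PBS under the skin on days 0, 14 and 28, whereas the SJMHE1 group had SJMHE1 at 10 μg in an emulsion of incomplete Freund's adjuvant, so that peptide and adjuvant cannot be told apart. The mice were sacrificed on day 36. A healthy Control group of the series was not analysed here.

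For each group 3 samples were mixed and sequenced as 1 library. The comparison of the SJMHE1 library with the PBS library therefore rests on 1 library a side, with no replicate check and without p-values, and every difference is a description of 2 libraries. Intervals are 95% counting intervals from the exact Clopper-Pearson method, and cover counting error only, not the spread between mice. Levels are given in FPKM, which are read counts per length of the gene and per depth of the library, so levels of different genes can be set side by side within a library. Differences are log2 ratios of FPKM, with SJMHE1 divided by PBS, where 0 is no difference and 1 or -1 is a fold of 2.

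Proteins of the BCL2 family govern the mitochondrial pathway of apoptosis. The effectors BAX and BAK open the outer membrane of the mitochondrion and release cytochrome c, which sets off the caspases. The anti-apoptotic proteins hold the effectors and the BH3-only proteins in check, and the BH3-only proteins, made in response to stress or loss of survival signals, bind them through a short helix named BH3. Mature B cells are known to need such protection to persist, with MCL1, BCL2 and A1 acting in them, and BIM is known for removing B cells that lack survival signals or bind self-antigen.

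The stretch that encodes the BH3 helix is printed for the members in which it was found, because it is the part shared by survival and death proteins of the family. A core of the BH3 helix was searched for in the translated coding sequence of 9 members as a leucine, any 3 residues, a glycine or alanine and an aspartate, and 7 of the 9 held it once. Pmaip1 was not searched, since its sequence is not reported here, so nothing is said of a match in it. The same short core occurred in 11.7% of 9624 mouse genes with coding sequences between 312 and 996 bases, so a match alone does not mark the family. The coding bases printed here are those of GENCODE M21 for GRCm38, 5′ to 3′, from the C57BL/6J strain and not BALB/c, with the codons of the leucine and of the last pair of fixed residues in capitals.
Bcl2: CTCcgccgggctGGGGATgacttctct
Bcl2l1: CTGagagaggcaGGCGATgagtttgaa
Mcl1: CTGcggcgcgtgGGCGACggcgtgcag
Bax: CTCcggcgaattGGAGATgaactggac
Bak1: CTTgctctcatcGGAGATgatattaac
Bcl2l11: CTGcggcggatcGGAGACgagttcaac
Bbc3: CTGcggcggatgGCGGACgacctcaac
These lie at coding positions 280 to 306 in Bcl2, 268 to 294 in Bcl2l1, 580 to 606 in Mcl1, 187 to 213 in Bax, 226 to 252 in Bak1, 448 to 474 in Bcl2l11 and 421 to 447 in Bbc3. Bbc3 is the member with an alanine codon at the fifth position of the core, and the others shown have a glycine codon there. Bcl2a1b and Bcl2a1d had no match in this form.

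The Bcl2a1 genes are near copies of each other, which limits what can be said of each. Their coding sequences are all 519 bases long, with 6 differences between Bcl2a1b and Bcl2a1d, an identity of 98.84%. Bcl2a1a, a further copy that is not among the 10 genes, differs from Bcl2a1b at 11 positions and from Bcl2a1d at 7. The first 60 coding bases, the stretch of that length with the most positions that vary, follow with those 6 positions in capitals.
Bcl2a1a: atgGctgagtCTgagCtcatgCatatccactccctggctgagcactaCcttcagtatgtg
Bcl2a1b: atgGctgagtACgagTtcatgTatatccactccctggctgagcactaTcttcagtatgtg
Bcl2a1d: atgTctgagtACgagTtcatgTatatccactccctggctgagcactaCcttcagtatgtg
A window of 50 bases slid along the transcript was found in another copy too at 57.6% of its places in Bcl2a1b and at 79.5% in Bcl2a1d. With windows of 100 bases the shares were 31.1% and 54.7%. Reads from the shared stretches could be split between the copies by the authors' counting, so the level of each copy is uncertain on its own, and the counts of the copies were also added together.

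All 10 genes were detected in both libraries at an FPKM above 1, with between 282 and 42278 counts. No member differed by a fold of 2 or by a fold of 1.5 between the SJMHE1 and the PBS library. Among the 12433 genes compared, meaning those whose FPKM reached 1 in either library and was not 0 in the other, 6.0% were past a fold of 2 and 13.6% past a fold of 1.5. Among protein-coding genes alone these shares were smaller, at 2.63% and 7.85%. With an FPKM minimum of 5 in either library, which 8 members reached, they were 1.97% and 6.03%. The counting interval lay inside a fold of 2 for all 10 members and inside a fold of 1.5 for 9, the exception being Bbc3. The median log2 ratio was 0.022 over the members and -0.013 over all genes compared, with 5 members above 0 and 5 below (6 and 4 where the scaling moved Bax above 0). Across the 11366 genes whose FPKM reached 1 in each library, the middle 90% of log2 ratios ran from -0.57 to 0.49, and all 10 members lay within it. The interval left out 0 for 7 of the 10 members, beside 65.6% of all genes compared, so at this depth such small differences between the libraries were common. That count is for the authors' FPKM and depends on the scaling. The intervals of Bcl2l1 and Bak1 ended at -0.0035 and -0.026, while a scaling raised the median of all genes by up to 0.0447.

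**Figure D1:**
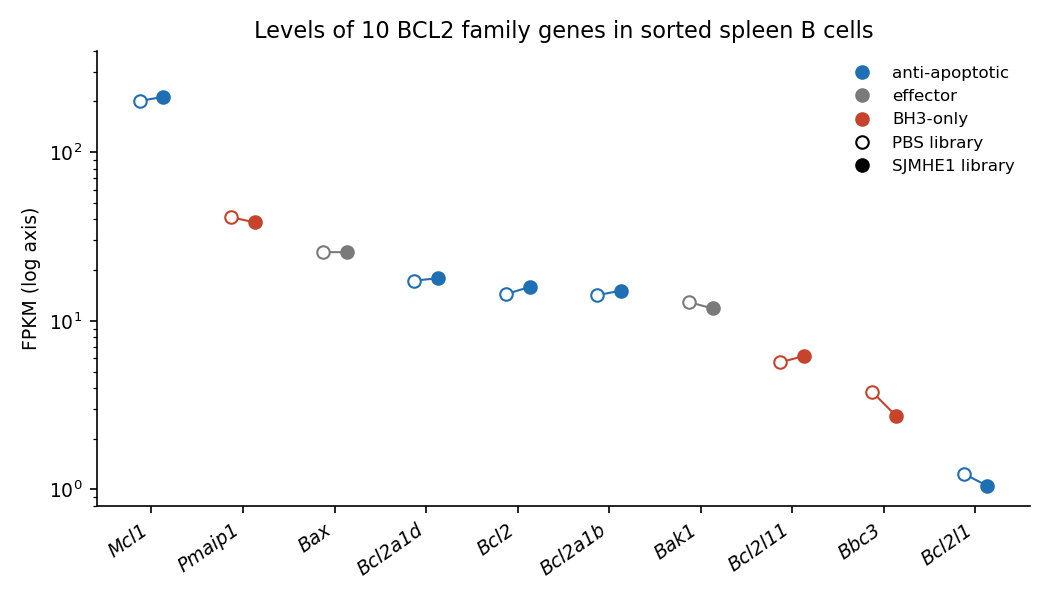
FPKM (log axis) of the 10 BCL2 family genes in the PBS library (open points) and the SJMHE1 library (filled points), ordered by the PBS level and coloured by role, with 1 pooled library per group and no error bars. Mcl1 stands highest at 202 and 213 and Bcl2l1 lowest at 1.24 and 1.05, and the order of the genes is the same in both libraries.

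The order of the levels was the same in both libraries, from Mcl1 through Pmaip1, Bax, Bcl2a1d, Bcl2, Bcl2a1b, Bak1, Bcl2l11 and Bbc3 to Bcl2l1. Mcl1 stood 4.90 times above the next gene in the PBS library, with an interval from 4.77 to 5.03, and 5.55 times above it in the SJMHE1 library, with an interval from 5.41 to 5.71. Among neighbours in this order, Bcl2 and Bcl2a1b were not told apart beyond counting error, with FPKM ratios of 1.01 (interval 0.935 to 1.10) in the PBS library and 1.05 (interval 0.973 to 1.14) in the SJMHE1 library. All other neighbours differed by more than counting error in both libraries, although for the Bcl2a1 genes the shared reads are not in these intervals.

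Mcl1 (ENSMUSG00000038612) encodes MCL1, a short-lived guardian of the mitochondrion that binds BIM, NOXA and BAK. It lies on chromosome 3 from 95658788 to 95663176 on the plus strand in GRCm38, with 3 exons in its longest coding transcript. Its FPKM was 202 in the PBS library (37848 counts) and 213 in the SJMHE1 library (42278 counts). This made it the gene ranked 182 of the table with PBS and 167 with SJMHE1. The log2 ratio was 0.078 (interval 0.0575 to 0.0976), the narrowest of the members. The SJMHE1 library was thus higher by 5.52%, and 75.1% of those 11366 genes differed by as much or more in either direction.

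Bcl2 (ENSMUSG00000057329), the founding member of the family, has its locus on chromosome 1, 106538178 to 106714274, on the minus strand. Its FPKM was 14.4 in the PBS library (7238 counts) and 15.9 in the SJMHE1 library (8445 counts). The log2 ratio of 0.14 (interval 0.095 to 0.19) was the highest of the 10 members and was still exceeded or matched in size by 57.0% of the 11366 genes. Of the exonic bases of Bcl2, 558 overlap a gene on the opposite strand, D630008O14Rik, which held 43 counts with PBS and 76 with SJMHE1. Whether the counting used strand is not given in the sources used here.

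Bcl2l1 (ENSMUSG00000007659) encodes BCL-XL, the anti-apoptotic protein on which red cell precursors and immature lymphocytes are known to rely. Its locus is chromosome 2, 152780668 to 152831728, on the minus strand. It was the lowest of the members, its FPKM being 1.24 in the PBS library (315 counts) and 1.05 in the SJMHE1 library (282 counts). The log2 ratio was -0.24, and the interval from -0.48 to -0.0035 came close to 0. Bcl2 stood 11.6 times above Bcl2l1 with PBS and 15.1 times above it with SJMHE1. It was the only anti-apoptotic member below 0, the other four having log2 ratios between 0.047 and 0.14.

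Bcl2a1b (ENSMUSG00000089929) and Bcl2a1d (ENSMUSG00000099974) encode A1, an anti-apoptotic protein known as a target of NF-κB in activated lymphocytes and myeloid cells. Both lie on chromosome 9, Bcl2a1b from 89199209 to 89207827 on the plus strand and Bcl2a1d from 88723285 to 88731914 on the minus strand. For Bcl2a1b the FPKM was 14.2 in the PBS library (637 counts) and 15.1 in the SJMHE1 library (718 counts), which put the log2 ratio at 0.090 (interval -0.066 to 0.25). For Bcl2a1d it was 17.3 (821 counts) and 17.9 (898 counts), which put the log2 ratio at 0.047 (interval -0.091 to 0.185). Bcl2a1a was lower, at an FPKM of 3.05 (138 counts) and 3.67 (175 counts). When the counts of Bcl2a1a, Bcl2a1b and Bcl2a1d were added, 1596 counts stood against 1791, and the log2 ratio was 0.084 with an interval from -0.014 to 0.18. Neither copy nor their sum differed beyond counting error with the authors' FPKM. For the sum this depends on the scaling, since a scaling raised the median of all genes by up to 0.0447, against its lower end of -0.014. In Bcl2a1b, 401 exonic bases are shared with Gm29094 on the same strand, a gene with an FPKM of 1.10 and 1.26.

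Bax (ENSMUSG00000003873) encodes the effector that moves from the cytosol to the mitochondrion when a cell is driven to die. Its locus is chromosome 7, 45461697 to 45466898, on the minus strand. Its FPKM was 25.6 in the PBS library (2215 counts) and 25.5 in the SJMHE1 library (2339 counts). The log2 ratio was -0.0034 (interval -0.088 to 0.081), which limits the difference of these libraries to between -5.91% and 5.78% by counting. Its sign depended on the scaling and was positive under 4 of 10 alternatives. Counts scaled by library sum kept it negative, at -0.0088, and the pseudocounts and filters could not change a sign. Bax shares 192 of its 1576 exonic bases with Gm45808 on the same strand.

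Bak1 (ENSMUSG00000057789) encodes BAK, the effector that sits in the mitochondrial membrane, where MCL1 and BCL-XL hold it in check. Its locus is chromosome 17, 27019810 to 27029009, on the minus strand. Its FPKM was 12.9 in the PBS library (1707 counts) and 11.8 in the SJMHE1 library (1658 counts), which put the log2 ratio at -0.12 (interval -0.22 to -0.026). Bax stood 1.98 times above Bak1 with PBS and 2.16 times above it with SJMHE1. Of the exonic bases of Bak1, 614 overlap Ggnbp1 on the opposite strand, which held 77 and 111 counts.

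**Figure D2:**
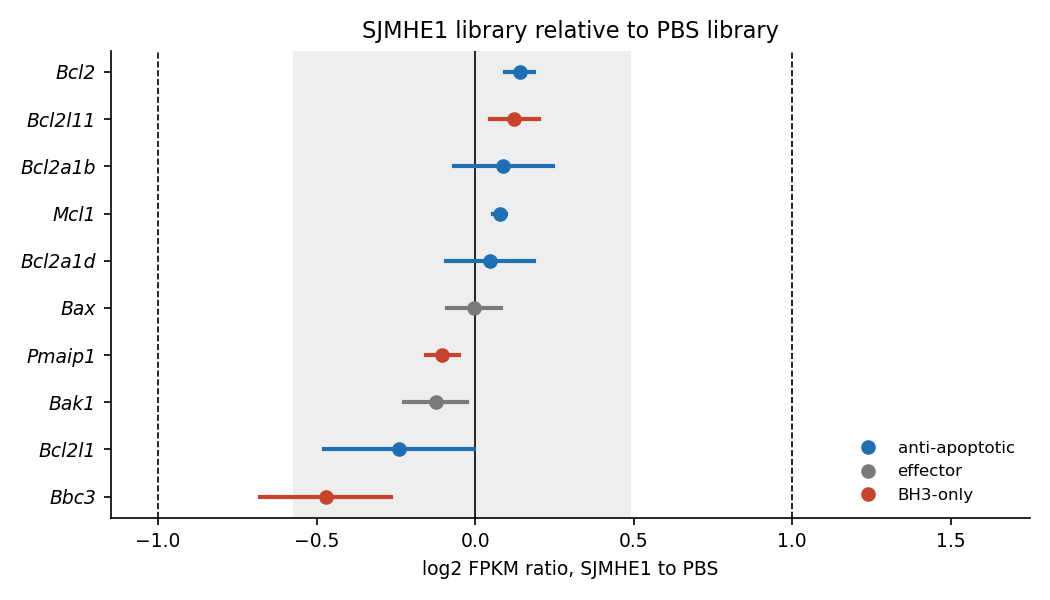
log2 FPKM ratio of SJMHE1 to PBS (points) with 95% counting intervals (bars) for the 10 genes, coloured by role. The grey band is the middle 90% of 11366 genes, from -0.57 to 0.49, and the dashed lines mark a fold of 2. All points lie in the band, and Bbc3 at -0.47 lies nearest to its edge.

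Bbc3 (ENSMUSG00000002083) encodes PUMA, a BH3-only protein that p53 and FOXO factors are known to switch on. Its locus is chromosome 7, 16308393 to 16318205, on the plus strand. Its FPKM was 3.80 in the PBS library (445 counts) and 2.74 in the SJMHE1 library (340 counts). With a log2 ratio of -0.47 (interval -0.68 to -0.26), it had the largest difference of the 10 members, the SJMHE1 library standing at -27.9% relative to PBS (interval -37.6% to -16.8%). Of the 11366 genes, 7.21% had a lower log2 ratio and 12.6% differed by as much in either direction. The difference did not pass a fold of 1.5.

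Bcl2l11 (ENSMUSG00000027381) encodes BIM, the BH3-only protein that sets the life span of B cells deprived of survival signals. Its locus is chromosome 2, 128126038 to 128162547, on the plus strand. Its FPKM was 5.68 in the PBS library (2507 counts) and 6.19 in the SJMHE1 library (2891 counts), which put the log2 ratio at 0.12 (interval 0.046 to 0.20). It was the only effector or BH3-only member above 0, apart from Bax under the 4 scalings that moved it there. Bcl2l11 stood 1.49 times above Bbc3 with PBS and 2.26 times above it with SJMHE1.

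Pmaip1 (ENSMUSG00000024521) encodes NOXA, a BH3-only protein that binds mainly MCL1 and A1. Its locus is chromosome 18, 66458533 to 66465565, on the plus strand. It was the most abundant of the BH3-only genes, its FPKM being 41.2 in the PBS library (6176 counts) and 38.3 in the SJMHE1 library (6085 counts). The log2 ratio was -0.10 (interval -0.15 to -0.052). Mcl1, whose product NOXA binds, stood 4.90 times above it with PBS and 5.55 times above it with SJMHE1.

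By role, 1 gene supplied most of the anti-apoptotic and 1 gene most of the BH3-only level. Mcl1 made up 81.1% of the summed FPKM of the 5 anti-apoptotic genes with PBS and 81.0% with SJMHE1, and Pmaip1 made up 81.3% and 81.1% of that of the BH3-only genes. Bbc3 took 7.50% of the BH3-only sum with PBS and 5.80% with SJMHE1. The anti-apoptotic sum was 249 with PBS and 263 with SJMHE1, which put the log2 ratio at 0.078 (interval 0.057 to 0.099). The effector sum was 38.5 and 37.4, which put the log2 ratio at -0.043 (interval -0.11 to 0.022). The BH3-only sum was 50.7 and 47.3, which put the log2 ratio at -0.10 (interval -0.14 to -0.056). The ratio of the anti-apoptotic sum to the sum of the effector and BH3-only genes was 2.79 with PBS and 3.11 with SJMHE1, and that of Bcl2 to Bax was 0.563 and 0.622. These sums are of RNA levels and follow their most abundant gene.

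**Figure D3:**
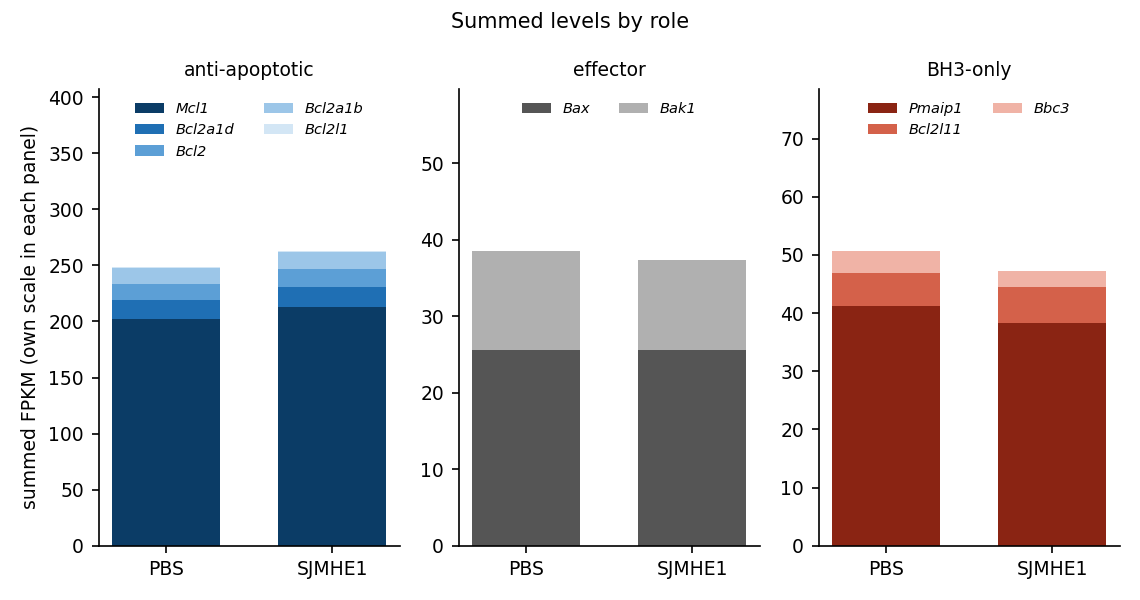
Summed FPKM of the anti-apoptotic, effector and BH3-only genes in the PBS and SJMHE1 libraries, as stacked bars that start at 0, with an own scale in each panel and 1 library per bar. Mcl1 and Pmaip1 fill most of their bars, and the bars of the 2 libraries are close in height, as 249 and 263 for the anti-apoptotic genes.

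The other genes of the family were measured from a list of 17, of which 15 were in the table and 10 could be compared. None of the 10 was past a fold of 2 or of 1.5, beside 6.0% and 13.6% of all genes compared. The median log2 ratio of the 10 was 0.21, with 7 genes above 0 and 3 below, against a median of -0.013 over all genes compared. Bnip3, a BH3-only related gene of hypoxia and mitophagy, was the highest, with an FPKM of 2.86 with PBS and 3.73 with SJMHE1 and a log2 ratio of 0.38. Bcl2l2, which encodes the anti-apoptotic BCL-W, was the lowest, with an FPKM of 2.01 and 1.60 and a log2 ratio of -0.33. Bik, a BH3-only gene named here after its values were seen, held 21 counts with PBS and 0 with SJMHE1. Against the 3 counts that a count of 0 allows, it was at least 7.44-fold lower in the SJMHE1 library if the 21 counts are taken without their own counting error, at an FPKM of only 0.24 in the PBS library. Bok was at 0 counts in both libraries, and Bcl2l14, Bcl2l15 and Hrk were too low to be compared.

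Downstream of the family, the 19 genes of the apoptosome, the caspases and their inhibitors could all be compared. None was past a fold of 2, beside 6.0% of all genes compared. Of the 19, 1 was past a fold of 1.5, beside 13.6% of all genes compared. It was Birc5, which encodes survivin, a caspase inhibitor relative that is made in dividing cells. Its FPKM was 2.43 with PBS and 1.35 with SJMHE1, which put the log2 ratio at -0.85 (interval -1.07 to -0.63). Xiap, the inhibitor of the executioner caspases, had the highest log2 ratio of the list, 0.37, with an FPKM of 9.79 and 12.7. The median of the list was 0.058, with 11 genes above 0 and 8 below. Apaf1, the scaffold of the apoptosome, was at an FPKM of 3.59 and 3.83.

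Upstream, p53 and its targets gave 14 of 18 genes that could be compared. None was past a fold of 2, beside 6.0% of all genes compared. Of the 14, 2 were past a fold of 1.5, Cdkn1a and Gtse1, beside 13.6% of all genes compared. The median log2 ratio of the 14 was 0.076, with 8 genes above 0 and 6 below. Cdkn1a, the cell cycle inhibitor that p53 switches on, was the lowest, with an FPKM of 1.26 with PBS and 0.72 with SJMHE1 and a log2 ratio of -0.81 (interval -1.11 to -0.51). Mdm4, an inhibitor of p53, was the highest, with an FPKM of 39.9 and 48.9 and a log2 ratio of 0.29. Trp53 itself was at an FPKM of 26.9 and 29.4. Pmaip1 and Bbc3, which p53 also switches on, lay at -0.10 and -0.47.

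Of 20 transcription factors known to act on BCL2 family genes, 2 were past a fold of 2, both lower in the SJMHE1 library, where 3.57% of all genes compared were lower and 2.43% higher by that fold. These were Atf3 and Ddit3, factors of the stress response, the latter encoding CHOP, which is known to raise BIM and lower BCL2. The FPKM of Atf3 was 77.2 with PBS and 32.5 with SJMHE1, which put the log2 ratio at -1.25 (interval -1.30 to -1.19). That of Ddit3 was 28.2 and 14.0, which put the log2 ratio at -1.02 (interval -1.11 to -0.92), an interval that includes folds below 2. The list had 5 genes above 0 and 15 below, with a median of -0.13. Rel, an NF-κB subunit that acts on Bcl2a1 and Bcl2l1, was at an FPKM of 105 and 78.1, a log2 ratio of -0.42, and Nfkb2 was the highest of the list at 0.39.

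The PBS library held 48267168 counts and the SJMHE1 library 51280237. The sorted cells carried the markers of B cells in both libraries. All 12 of 12 genes could be compared, with a median log2 ratio of 0.0082 and a summed FPKM of 7786 and 7598. Cd74 alone gave 4643 and 4297 of these sums, while 7 of the 12 genes were above 0 and 5 below. Their log2 ratios ran from -0.14 for Ebf1, a B cell transcription factor, to 0.68 for Cr2, the complement receptor CD21, and none was past a fold of 2. Each list of markers of other cells summed to less than the B cell list, but levels differed between the libraries. Single genes of them were not low. S100a9 at 196 and 266 and Jchain at 388 and 313 stood above Pax5 at 127 and 129, and below Cd79a at 835 and 835. The 12 T cell genes summed to an FPKM of 30.2 with PBS and 9.33 with SJMHE1, with 11 of 11 genes compared past a fold of 2 and lower, and Thy1 was the most abundant at 4.86 and 1.24. None of these was at 0 in either library. The 8 NK cell genes found summed to 16.8 and 7.02, led by Gzma at 6.57 and 2.96, with 4 of 5 compared past a fold of 2 and lower. The 8 dendritic cell genes summed to 23.2 and 17.2, led by Bst2 at 14.7 and 13.3, whose interval included 0 (-0.29 to 0.011). Of these genes 4 of 4 compared were below 0 and 2 past a fold of 2. Among those too low to be compared, Zbtb46 was higher (FPKM 0.44 and 0.65), and Xcr1, Clec9a and Cd209a were lower. The 12 macrophage genes summed to 35.5 and 32.4, led by Cd68 at 12.6 and 6.77, while 6 of 9 genes compared were above 0 and 2 of these past a fold of 2, with a median log2 ratio of 0.24. The 12 neutrophil genes summed to 471 and 544, led by S100a9 at 196 and 266, although 7 of the 12 were below 0 and the median log2 ratio was -0.12. The 9 erythroid genes found summed to 154 and 202, led by Hbb-bs at 49.2 and 62.3, with 8 of 8 compared above 0. In both lists 0 genes were past a fold of 2. The plasma cell genes summed to 654 and 549, led by Jchain at 388 and 313, with 6 of 7 below 0 and 1 of these past a fold of 2. Of the 12 heat shock genes, 8 were past a fold of 2 and higher in the SJMHE1 library, and of the 18 immediate early genes 1 was, Atf3, which was lower. The part of these cells and of these responses in the members' values was not tested. In such bulk RNA, fewer cells of a type and less RNA per cell cannot be told apart.

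**Figure D4:**
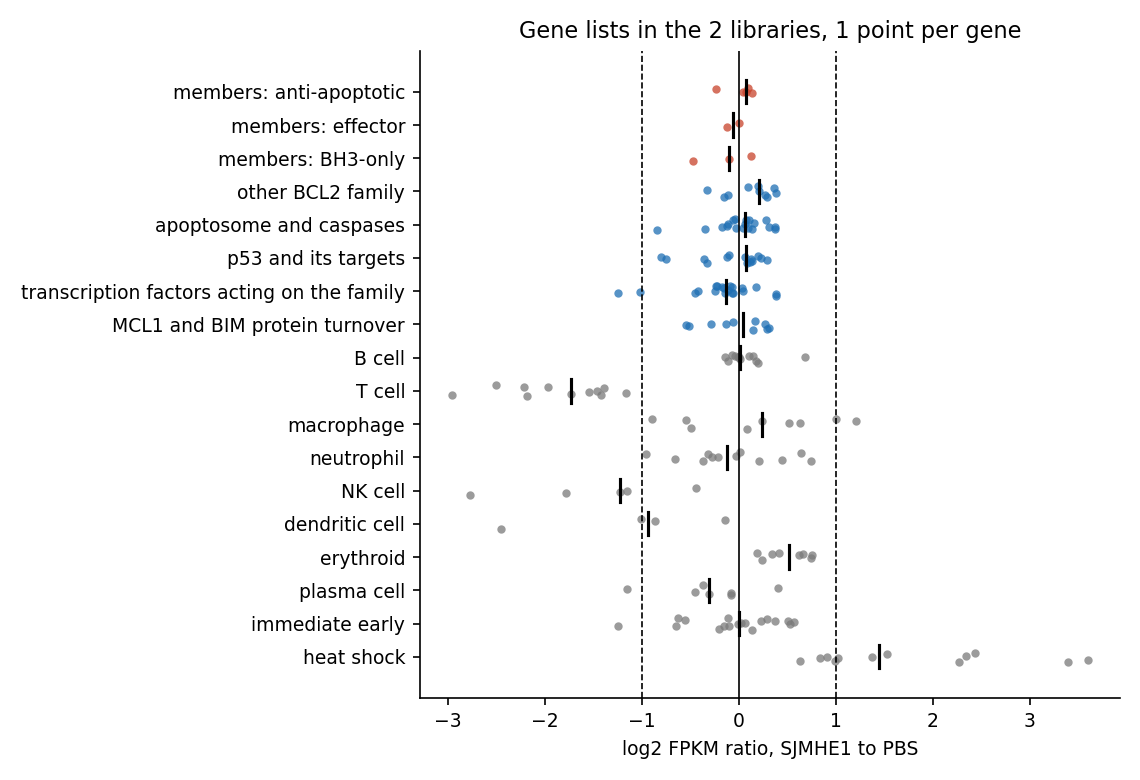
log2 FPKM ratio of SJMHE1 to PBS for each gene compared of the 10 members by role (red), of other apoptosis lists (blue) and of cell type and stress lists (grey), 1 point per gene, with the list median as a black bar and dashed lines at a fold of 2. The members lie between -0.47 and 0.14, while the T cell genes lie below -1 and the heat shock genes reach 3.60.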

How the data were processed

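B cells were sorted from the spleen by flow cytometry, and rRNA was removed before library construction. The submitters' processing notes name HISAT2, StringTie, bcl2fastq 2.0, DESeq2, limma and the mm10 build, without their roles, and the methods of the study name the LC-Bio Cloud Platform. The authors deposited raw read counts per gene. They also deposited FPKM, scaled for gene length and library size by the authors and given to 2 decimals. Another 2 columns with values of a sample carry a name that no label matches, so they were not used and the planned comparisons with the Control group were not made. The locus of all 10 members in the table is the one in GENCODE M21 on GRCm38, which supplied the sequences.

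The log2 ratio of FPKM was taken without a pseudocount for genes that reached an FPKM of 1 in either library and were not 0 in the other. Counting intervals come from the exact Clopper-Pearson interval of both counts at the 95% level. The usual count test needs replicates and could not be fitted. The calculation was tested on simulated counts with counting error alone, in which 200 genes were changed. Such counts hold no spread between mice, so the test says nothing of that spread. The members and lists were chosen with earlier results of these data known. The text names every member and, of each other list, the genes past a fold of 2 or else the highest and the lowest log2 ratio, and of other cell types the most abundant gene. Genes outside this rule (Apaf1, Trp53, Rel, Nfkb2, Gtse1, Bik, Cd74, Cd79a, Pax5, Zbtb46, Xcr1, Clec9a, Cd209a, the Bcl2a1 copy and overlapping genes) were named after their values were seen. Some genes past a fold of 2 in the cell type and stress lists are given as counts only. Alternatives were pseudocounts, count scalings by library sum, TMM (edgeR 4.0.16) and DESeq2 1.42.0 size factors, centring, rescaling and filters. Python 3.11.15, numpy 2.4.6, pandas 2.3.3, scipy 1.17.1, matplotlib 3.10.9 and R 4.3.3 were used.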

Additional observations from a re-analysis of the deposited data

How the results depend on the processing

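No member passed a fold of 2 or of 1.5 under any of the 10 alternatives for scaling, pseudocount and filter, or in the main setting. Of 98 values of single members under these alternatives, 95 stayed inside their counting interval and 3 did not. Values under the filters equal the main ones by construction and could not leave it. These are 10 values without a filter, 8 with an FPKM minimum of 5 and 10 among protein-coding genes. The 3 values outside were of Mcl1, with log2 ratios of 0.10 with TMM, 0.12 with DESeq2 size factors and 0.11 after rescaling without the 50 most abundant genes, against 0.078. The sign stayed the same for 9 members, and that of Bax turned from -0.0034 to between 0.0092 and 0.041 under TMM, size factors, centring and rescaling. Pseudocounts and filters cannot change a sign, so only the scalings, centring and rescaling could do so. How many intervals left out 0 was not counted under the alternatives. A pseudocount of 1 shrinks low genes by its construction, and moved Bcl2l1 to -0.13 and Bbc3 to -0.36. The median over the members ran from -0.0034 with the Bcl2a1 genes added into 1 to 0.067 with size factors, and an FPKM minimum of 5 left out Bcl2l1 and Bbc3 and gave 0.062. Without the Bcl2a1 genes the log2 ratio of the anti-apoptotic sum was 0.080. The share of all genes past a fold of 2 was 16.6% without a filter, 2.27% with a pseudocount of 1, 1.97% with an FPKM minimum of 5 and 2.63% among protein-coding genes, against 6.0%. For a fold of 1.5 the shares in the same order were 29.6%, 7.74%, 6.03% and 7.85%, against 13.6%. No scaling moved the median of all genes by more than 0.0447. No paired analysis was possible because a group is a single library and the result comes from no test. Counting error limits Bcl2l1, Bbc3 and the Bcl2a1 genes most.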

Other observations

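The protein level of MCL1 and BIM is known to be set largely by turnover, so 11 genes of that machinery were looked at as well. Of these, 10 could be compared, with 5 above 0 and 5 below and a median log2 ratio of 0.041. None of them was past a fold of 2 or of 1.5, beside 6.0% and 13.6% of all genes compared. Fbxw7, a ubiquitin ligase subunit that marks MCL1 for destruction, was the lowest, at FPKM 7.14 in the PBS library (2764 counts) and 4.90 in the SJMHE1 library (2009 counts), which put the log2 ratio at -0.54 (interval -0.63 to -0.46). Dynll1, a dynein light chain that binds BIM, was the highest, with an FPKM of 18.5 and 23.1 and a log2 ratio of 0.31 (interval 0.25 to 0.37). The ubiquitin ligase Huwe1 and the deubiquitinase Usp9x, which act on MCL1 in opposite directions, were at 0.27 and 0.29, both higher in the SJMHE1 library. Huwe1 and Usp9x were chosen after their values were seen. Protein levels were not measured in these files.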
